A study of Mus musculus with 50 samples.

Results

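A set of 42 pan-neuronal and synaptic genes was followed through the RNA-seq count table of embryonic mouse brain. The rows taken were those whose gene symbol was on a fixed list. That list was chosen with earlier results of these data known, so counts over it describe these libraries only. All 42 listed genes were among the 11708 genes of the table. They were read in 5 role groups: 16 genes of the neuronal cytoskeleton, 7 neuronal RNA-binding proteins, 11 genes of the synaptic vesicle and its release, 6 adhesion molecules and 2 other neuronal genes. RNA came from whole brains at E13.5 (embryonic day) in strain FVB/ANTJ, with 3 libraries for each of 6 genotypes. In the comparison for the transcription factor gene Gtf2i, called the gtf2i cross here, the genotypes were wt, gtf2i and gtf2i/gtf2i. In the comparison for its paralog Gtf2ird1, the ird1 cross, they were a separate wt group, ird1 and ird1/ird1. The label with the allele once was read as carrying 1 mutant allele. The labels do not describe the alleles. Nor do they say whether the libraries of a group came from separate litters, so p-values measure the spread between these samples only.

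Neurons differ from their dividing precursors in the proteins that build axons and dendrites, in the RNA-binding proteins that splice and stabilise neuronal transcripts, and in the machinery that loads, docks and fuses synaptic vesicles. At this stage the brain holds dividing radial glia beside young neurons that migrate and extend axons, and most synapses have not yet formed. Transcripts of vesicle and adhesion proteins are nevertheless already made by young neurons.

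Total counts ran from 3239117 to 7371483 per library, and the 42 genes took between 1.51% and 2.13% of them. Levels are in CPM, the count of a gene scaled to the total of its library, with normalisation factors from trimmed means of M values. Gtf2i was at 624 ± 30.7 CPM in wt, 368 ± 6.23 in gtf2i and 82.5 ± 0.797 in gtf2i/gtf2i (SD, n = 3 each). Gtf2ird1 was higher rather than lower in the mutants of the ird1 cross, at 90.4 to 114 CPM in the 3 wt libraries, 147 to 151 in those labelled ird1 and 219 to 227 in those labelled ird1/ird1, so a summed count over the gene does not check those labels as a loss. It was also higher in gtf2i/gtf2i, at 267 ± 21 CPM against 92.4 ± 7.32 in wt of that cross. The libraries labelled ird1 and ird1/ird1 are called by those names below. Of the 18 libraries, 2 stood apart from the others of their group. In gtf2i/gtf2i replicate 3 the mean of the 42 genes, on the log2 scale relative to each gene's mean over 18 libraries, was 0.12, against -0.35 and -0.24 in the other 2 libraries of that genotype. In wt replicate 2 of the ird1 cross, which had the smallest sum of counts, the RNA-binding genes were at -0.58 on that scale, against -0.10 and -0.17 in the other 2. For members and their role groups, changes printed below for ird1/ird1 or gtf2i/gtf2i against wt were also fitted with either of these libraries left out. Where that moved a change by over 1.5 times, the value without the library is given too.

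**Figure D1:**
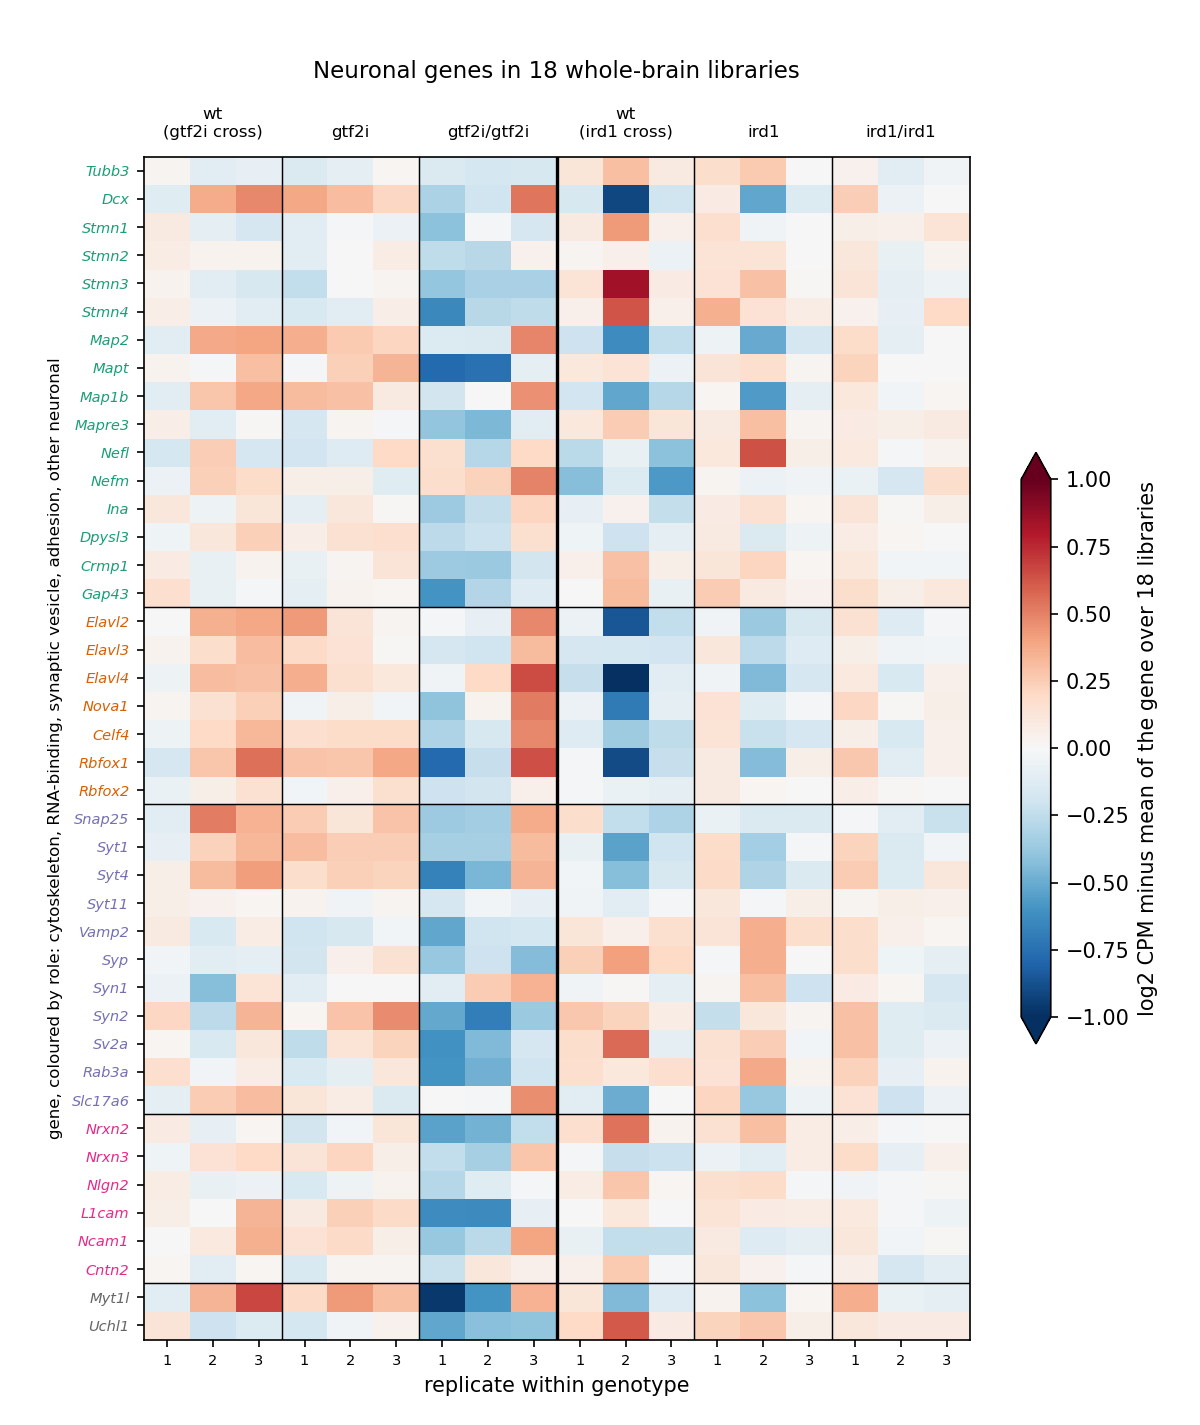
Each row is 1 of the 42 genes, ordered and coloured by role group, and each column 1 of the 18 libraries, with the replicate number below; colour is log2 CPM minus the mean of the gene over the 18 libraries, with values beyond 1 in either direction drawn at the end of the scale. In gtf2i/gtf2i most rows are blue in replicates 1 and 2 and many are red in replicate 3, and wt replicate 2 of the ird1 cross has low RNA-binding genes.

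Compared per kilobase of the deposited transcript length over the 6 wt libraries of both crosses, the cytoskeletal genes held most of the high levels. Tubb3, the neuronal beta-tubulin used as a marker of young neurons, was the highest at 1168 ± 123 CPM per kb (SD, n = 6). Uchl1, a deubiquitinating enzyme abundant in neurons, followed at 412 ± 88.6 CPM per kb. Crmp1 and Dpysl3, which encode collapsin response mediator proteins of the growth cone, were at 385 ± 33.2 and 342 ± 38.4 CPM per kb, and the stathmin gene Stmn3 was at 312 ± 91.5. Uchl1 and Crmp1 differed by less than the larger of their SDs, as did Dpysl3 and Stmn3. At the other end were the splicing regulator Rbfox1 at 10.5 ± 3.38 CPM per kb, the synapsin gene Syn2 at 8.49 ± 1.17 and Snap25, a SNARE protein of vesicle fusion, at 6.48 ± 1.52. Only these 3 genes lay below the median of all genes, 11.5 CPM per kb. The group medians were 147 CPM per kb for the cytoskeleton, 86.4 for adhesion, 30.3 for RNA-binding and 26.3 for the synaptic vesicle.

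The members differed in how much they moved between libraries. The vesicle gene Syt11, a synaptotagmin, was the steadiest, from 277 to 338 CPM over the 18 libraries, a coefficient of variation of 4.77%. Rbfox2 was next, from 637 to 820 CPM (6.74%). The widest were Rbfox1, from 17.4 to 50.8 CPM (26.7%), Myt1l, which encodes a transcription factor that represses non-neuronal genes (26.2%), and Dcx, which encodes the microtubule-binding protein doublecortin of migrating neurons (24.1%). Elavl4, which encodes the RNA-stabilising protein HuD, had the largest ratio of highest to lowest library, 3.14, with its lowest value in wt replicate 2 of the ird1 cross.

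In gtf2i/gtf2i against wt, 37 of the 42 genes had a lower fitted level and 5 a higher one, with a median log2 fold change of -0.21. Over all genes the median was 0.00, and 49.6% were lower. No member passed the test over all genes, which a gene passes, or is called, at a Benjamini-Hochberg adjusted p under 0.05 in the quasi-likelihood test of edgeR, where 0.94% of all genes did. At an unadjusted p under 0.05, 17 members were lower and 0 higher, and 8.3% of all genes were lower by that rule. DESeq2 called 7 members, each lower, where it called 2.75% of all genes. Under other scaling factors 36 members were lower, since Slc17a6 lay at -0.00 (-0.18 without gtf2i/gtf2i replicate 3). In 16 members all 3 gtf2i/gtf2i libraries lay below all 3 wt libraries, a pattern found in 8.98% of all genes, and in 0 members above them. In whole-brain RNA, fewer neurons and less of a transcript per neuron cannot be told apart.

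The smallest p belonged to Rab3a, a small GTPase of the synaptic vesicle. It was at 153, 134 and 144 CPM in the wt libraries and at 90.4, 97.9 and 119 in gtf2i/gtf2i. Every mutant library was below every wt library, and the log2 fold change was -0.49 (SE 0.11, adjusted p by edgeR 0.0529).

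Same-numbered sample titles paired each gtf2i/gtf2i library with 1 wt library. With the title number as a block, 13 of the 42 genes were called, each lower, where 5.33% of all genes were called in that fit. They were 5 cytoskeletal genes (Stmn3, Stmn4, Mapt, Crmp1 and Gap43), 4 vesicle genes (Vamp2, Syn2, Sv2a and Rab3a), 2 adhesion genes (Nrxn2 and L1cam), Myt1l and Uchl1. Within the 3 numbers the mutant library was the lower one for 35, 41 and 22 members, with median log2 differences of -0.23, -0.37 and -0.01. The last of these pairs holds gtf2i/gtf2i replicate 3. Of the 42 genes, 22 were lower in all 3 numbers, against 20.1% of all genes. They were 9 cytoskeletal, 1 RNA-binding, 8 vesicle, 2 adhesion and both other neuronal genes. Syn1 was the 1 member higher in all 3.

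Leaving out gtf2i/gtf2i replicate 3 moved the median log2 fold change to -0.37 and the calls to 25 of 42, each lower, where 9.9% of all genes were called. The role medians were then -0.36 for the cytoskeleton, -0.32 for RNA-binding, -0.50 for the vesicle and -0.44 for adhesion. Leaving out any 1 of the other 5 libraries called 0 or 1 member, where 28 to 83 of all 11708 genes were called, with medians from -0.26 to -0.12. Without gtf2i/gtf2i replicate 1 the role medians were -0.12 for the cytoskeleton, 0.04 for RNA-binding, -0.20 for the vesicle and -0.07 for adhesion. The median and the number of calls thus moved most with gtf2i/gtf2i replicate 3. That library had 1.27% of its counts in the noncoding RNA genes Rn7sk and Gm23935, against 2.58% and 3.22% in the other 2 of its genotype. Over all genes, split at the members' median transcript length of 4143 bases, the mean relative log2 level of the longer genes minus that of the shorter ones was 0.18 in that library, against -0.03 in each of the other 2. The wt library of the same title number, wt replicate 3, had 1.24% and 0.15 on these measures. Its mean relative log2 level of the 42 genes, 0.17, was the highest of the 18 libraries. Leaving out that wt library called 0 members and 28 genes, with a median of -0.14. The part of RNA composition and length in the shifts on leaving out libraries was not tested.

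Among the 16 cytoskeletal genes, 14 were lower in gtf2i/gtf2i, and their median against wt was -0.21 on the log2 scale. Mapt, which encodes the microtubule-associated protein tau, had the lowest fitted change of the group. Its levels were 693, 671 and 834 CPM in wt and 396, 404 and 634 in gtf2i/gtf2i. The mutant libraries lay below wt, with replicate 3 the highest of them, and the log2 fold change was -0.62 (SE 0.16, adjusted p by edgeR 0.0814). With the block it was -0.64 (SE 0.11, adjusted p by edgeR 0.00454), and within the title numbers the log2 differences were -0.78, -0.76 and -0.39. Nefm, a neurofilament subunit, had the highest fitted change. It was at 67.4, 82.7 and 79.7 CPM in wt and 79.4, 82.2 and 99.2 in gtf2i/gtf2i, and the groups overlapped (log2 fold change 0.18, SE 0.11, and 0.08 without replicate 3 of the mutant).

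Tubb3 was at 2128, 1940.2 and 1969 CPM in wt and 1887, 1847 and 1869 in gtf2i/gtf2i. The groups did not overlap, but the gap was small, with a log2 fold change of -0.11 (SE 0.09, adjusted p by edgeR 0.618). Dcx was at 613, 864 and 933 CPM in wt and 535, 583 and 966 in gtf2i/gtf2i. Its highest and lowest values in the pair of groups were both mutant libraries (log2 fold change -0.21, SE 0.19). Without gtf2i/gtf2i replicate 3, the highest of them, it was -0.52 (SE 0.13, adjusted p by edgeR 0.0199). Of the 4 stathmin genes, which encode proteins that bind tubulin dimers, Stmn3 and Stmn4 did not overlap between the groups and Stmn1 and Stmn2 did. Stmn3 was at 321, 290 and 280 CPM in wt and 239.5, 249 and 249.97 in gtf2i/gtf2i, a log2 fold change of -0.28 (SE 0.09). Gap43, a growth cone protein, and Crmp1 had log2 fold changes of -0.36 (SE 0.11) and -0.32 (SE 0.09), again without overlap.

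The 7 RNA-binding genes had the group median nearest 0 in gtf2i/gtf2i, a log2 fold change of -0.12, with 0 of 7 below an unadjusted p of 0.05, and 0 of 7 without overlap. Rbfox1 was at 28.9, 39.3 and 47.5 CPM in wt and at 18.9, 27.7 and 50.8 in gtf2i/gtf2i, so the mutant group spanned the wt range (log2 fold change -0.24, SE 0.27). Elavl4 was at 107, 137 and 136 CPM in wt and 108, 127 and 174 in gtf2i/gtf2i (log2 fold change 0.10, SE 0.15). For both genes the highest mutant value was replicate 3. Without that library Rbfox1 was at -0.75 and Elavl4 at -0.11 on the log2 scale. The group median was then -0.32, with Elavl3, Celf4 and Rbfox1 among the 25 genes called. This median was 0.04 without gtf2i/gtf2i replicate 1, -0.03 without replicate 2, and -0.22 to -0.04 with 1 wt library left out.

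Among the 11 vesicle genes, 10 had a lower fitted level in gtf2i/gtf2i, the median log2 fold change was -0.31, and 6 did not overlap with wt: Syt11, Vamp2, Syp, Syn2, Sv2a and Rab3a. Syn2, which encodes synapsin II of the vesicle coat, had the lowest fitted change of all 42 genes. It was at 34, 24.6 and 37.2 CPM in wt and 20.6, 18.2 and 22.7 in gtf2i/gtf2i. The replicate 3 library did not stand out for this gene, and the log2 fold change was -0.64 (SE 0.17, adjusted p by edgeR 0.0795; with the block -0.62, SE 0.14, adjusted p 0.0173). Its paralog Syn1 was at 86.4, 66.9 and 98.9 CPM in wt and 83.7, 107 and 114 in gtf2i/gtf2i. That was the highest fitted change of the 42 genes, a log2 fold change of 0.27 (SE 0.14, adjusted p by edgeR 0.421; 0.17 without replicate 3), and the groups overlapped. Snap25 was at 27.4, 42.3 and 37.7 CPM in wt and 23, 23.3 and 38.3 in gtf2i/gtf2i. Replicate 3 again lay among the wt values, and the log2 fold change was -0.33 (SE 0.20). Without that library it was -0.63 (SE 0.17, adjusted p by edgeR 0.0248).

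Of the 6 adhesion genes, 5 were lower, and the log2 median was -0.19. L1cam, a cell adhesion molecule of growing axons, was at 268, 257 and 325 CPM in wt and 167, 166 and 244 in gtf2i/gtf2i. The groups did not overlap, and the log2 fold change was -0.57 (SE 0.14, adjusted p by edgeR 0.0664; with the block -0.58, SE 0.09, adjusted p 0.00191). Nrxn2, a presynaptic neurexin, was at 535, 478 and 514 CPM in wt and 349, 364 and 426 in gtf2i/gtf2i, also without overlap (log2 fold change -0.43, SE 0.10, adjusted p by edgeR 0.0598). Cntn2, a contactin of axon bundles, was at 742, 678 and 743 CPM against 629, 792 and 760.1, with a log2 fold change of 0.00 (SE 0.10; -0.02 without replicate 3).

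Myt1l was at 87.1, 119 and 149 CPM in wt and 47.9, 62.1 and 119 in gtf2i/gtf2i. The mutant group had the 2 lowest values but overlapped with wt, and the log2 fold change was -0.62 (SE 0.26, adjusted p by edgeR 0.283). With the block it was -0.67 (SE 0.17, adjusted p by edgeR 0.0311), and without gtf2i/gtf2i replicate 3, the highest mutant value, -1.12 (SE 0.18, adjusted p by edgeR 0.00134). Uchl1 was at 481, 382 and 401 CPM in wt and 308, 329.6 and 334 in gtf2i/gtf2i. All 3 mutant libraries lay close together below wt, and the log2 fold change was -0.39 (SE 0.10, adjusted p by edgeR 0.0683; with the block -0.38, SE 0.07, adjusted p 0.00995).

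**Figure D2:**
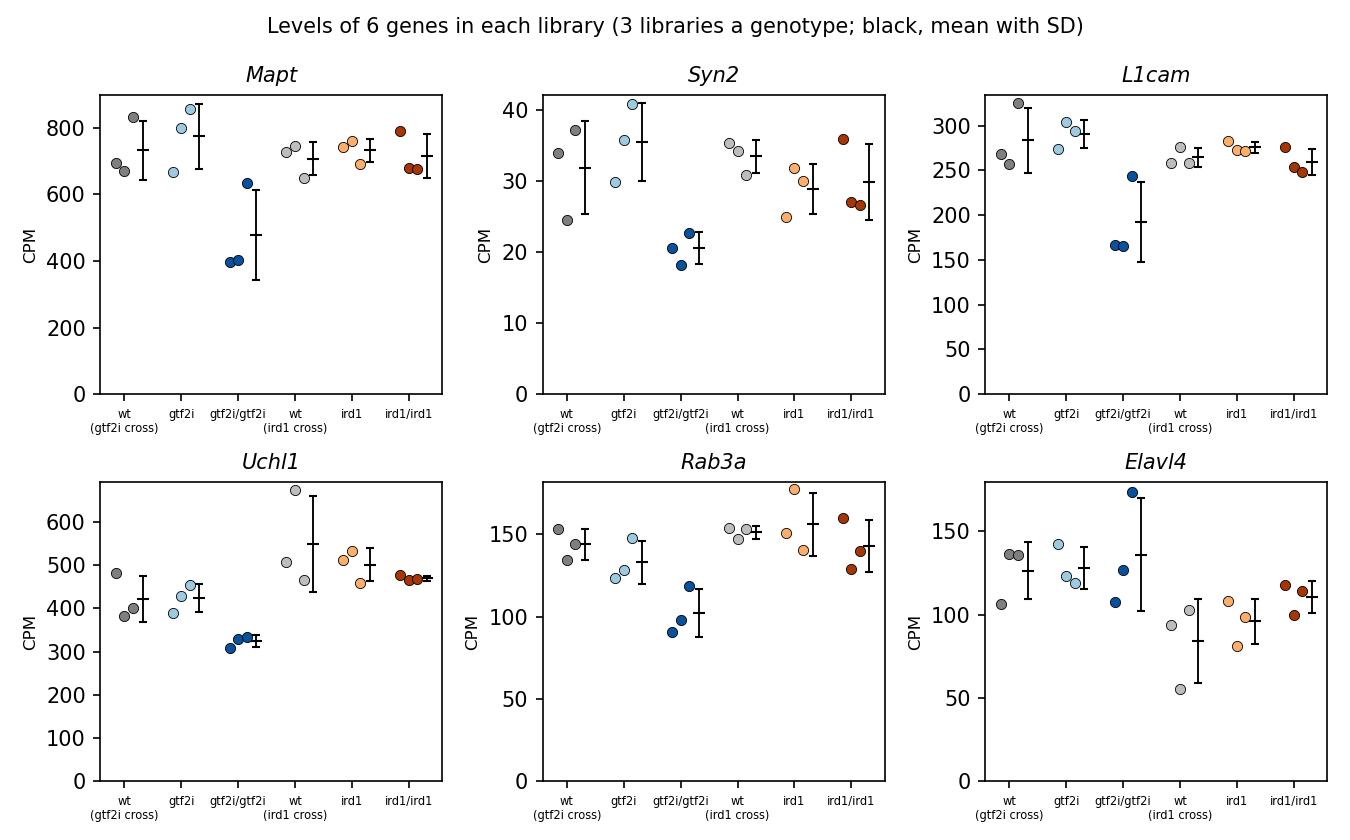
CPM of 6 genes in each library (points, in replicate order), with the mean and SD of the 3 libraries of each genotype in black and the axis from 0. For Mapt, Syn2, L1cam, Uchl1 and Rab3a the gtf2i/gtf2i points lie below those of wt in the same cross, and for Elavl4 they overlap.

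Carrying the gtf2i label once left no member called against wt, where 0.00854% of all genes were called by edgeR. At an unadjusted p under 0.05 there were 0 members, against 1.6% of all genes, and DESeq2 called 0 members. The median log2 fold change of the 42 genes was -0.01, and single values ran from -0.15 (Slc17a6, a vesicular glutamate transporter) to 0.15 (Syn2). In these libraries Syn2 was at 29.9, 35.9 and 40.8 CPM in gtf2i, Mapt at 666, 801 and 856, L1cam at 273, 304 and 295, and Uchl1 at 389.5, 429 and 454. Each of these ranges overlapped with wt.

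Between gtf2i/gtf2i and gtf2i, a comparison that shares the mutant libraries with the one against wt, 4 members were called, each lower, where 3.12% of all genes were called by edgeR. Syn2 had a log2 fold change of -0.79 (SE 0.17, adjusted p 0.0244), L1cam -0.60 (SE 0.14, adjusted p 0.0325), Mapt -0.70 (SE 0.16, adjusted p 0.0358) and Uchl1 -0.39 (SE 0.10, adjusted p 0.0421). The mutant levels of Syn2 were 57.8% of those in gtf2i, of Mapt 61.7%, of L1cam 66% and of Uchl1 76.3%. At an unadjusted p under 0.05, 15 members were lower, against 9.39% of all genes, and 1 was higher. The higher one was Nefm, at 73, 73 and 64.6 CPM in gtf2i, with a log2 fold change of 0.31 (SE 0.11, adjusted p by edgeR 0.177; 0.20 without gtf2i/gtf2i replicate 3). In 11 members the gtf2i/gtf2i libraries all lay below those of gtf2i, as did 10% of all genes. Over the 42 genes 35 were lower, and the median log2 change was -0.19 against 0.01 for all genes.

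DESeq2, the block and removal of the length trend kept the 4 calls, but leaving out single libraries ended them. Leaving out gtf2i/gtf2i replicate 1 or 2, or gtf2i replicate 2 or 3, left 0 members called, where 67 to 134 of all 11708 genes were called. The log2 fold changes in those 4 fits ran from -0.78 to -0.67 for Syn2, -0.67 to -0.58 for Mapt, -0.59 to -0.50 for L1cam and -0.40 to -0.34 for Uchl1. Leaving out gtf2i replicate 1 gave 8 calls, where 2.93% of all genes were called. A fit on all 18 libraries called Mapt, Syn2, L1cam and Crmp1, with 4.05% of all genes, and the call of Uchl1 ended there (adjusted p by edgeR 0.0586). Without gtf2i/gtf2i replicate 3 there were 24 calls, each lower, where 11.8% of all genes were called, and the median log2 fold change was -0.37.

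**Figure D3:**
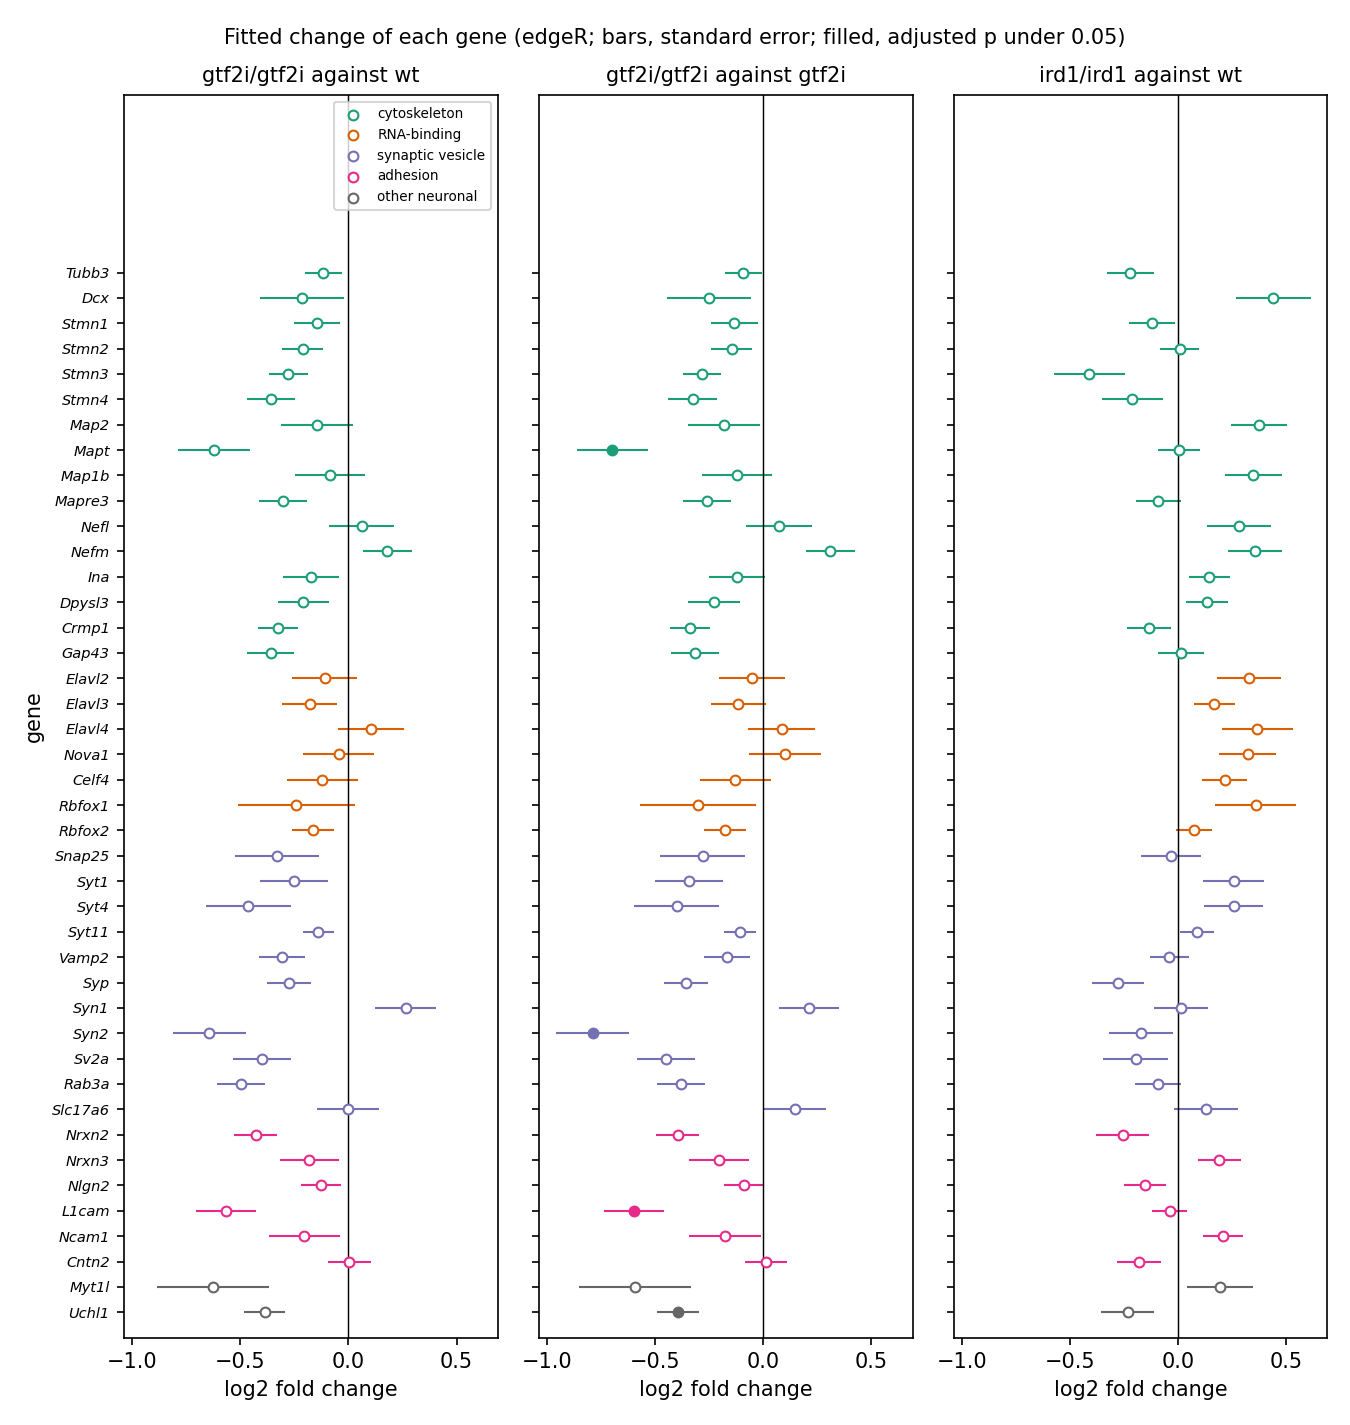
Fitted log2 fold change of each of the 42 genes (point) with its standard error (bar) in 3 comparisons; filled points have an adjusted p by edgeR under 0.05. Most points lie left of 0 in both comparisons of gtf2i/gtf2i, 4 of them filled against gtf2i, and in ird1/ird1 the RNA-binding genes lie right of 0 with none filled.

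Promoter sequence was read for every member with an entry in the reference table. The RefSeq table of GRCm38.p6, the assembly that mm10, the build of the counts, is made from, gives the 250 bases before and 50 after each start and matched 27 of the 42 genes in 50 windows, some of which overlap. No window was matched for Stmn1, Stmn2, Stmn4, Mapt, Nefl, Nefm, Dpysl3, Gap43, Celf4, Rbfox2, Snap25, Syt4, Vamp2, Nrxn2 and Ncam1. Shown are the 250 bases before the most upstream start of the 3 matched genes among the 4 calls, Syn2 (chr6:115134652-115134901, plus strand), L1cam (chrX:73880835-73881084, minus strand) and Uchl1 (chr5:66675871-66676120, plus strand), along the gene from 5′ to 3′. Capitals mark the E-box, CANNTG, the site type of basic helix-loop-helix factors.
Syn2: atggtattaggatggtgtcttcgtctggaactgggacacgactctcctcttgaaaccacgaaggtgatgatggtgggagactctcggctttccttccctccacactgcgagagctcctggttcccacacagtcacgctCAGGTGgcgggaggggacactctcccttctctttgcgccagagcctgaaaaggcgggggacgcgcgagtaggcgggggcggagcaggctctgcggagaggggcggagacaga
L1cam: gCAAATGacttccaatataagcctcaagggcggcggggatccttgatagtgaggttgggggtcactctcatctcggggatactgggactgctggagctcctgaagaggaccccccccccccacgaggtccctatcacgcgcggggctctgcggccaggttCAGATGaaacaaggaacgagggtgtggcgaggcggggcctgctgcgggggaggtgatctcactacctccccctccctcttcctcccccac
Uchl1: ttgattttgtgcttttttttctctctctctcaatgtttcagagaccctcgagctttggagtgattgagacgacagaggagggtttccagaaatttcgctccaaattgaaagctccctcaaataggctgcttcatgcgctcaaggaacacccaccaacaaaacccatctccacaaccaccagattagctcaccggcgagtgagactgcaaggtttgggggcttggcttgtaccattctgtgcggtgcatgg
Syn2 had 1 match, L1cam 2 and Uchl1 0. An E-box on either strand stood in 72% of the 50 windows of the members, in 62.4% of the 11763 windows of genes in the count table and in 72.3% of all 32851 windows.

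The letters GGATTA, the core motif of Gtf2ird1, were searched on both strands and found in the windows of Map1b and Syp, or 4% of the members' windows, against 5.28% for genes in the table and 7.06% of all windows. The first block of the RE1 motif of the repressor REST, TTCAGCACC, was also searched on both strands and found in Syn1 alone. That was 1 of the members' 50 windows, or 2%, against 0.451% for genes in the table and 0.371% of all windows. The 250 bases before the start of Syp (chrX:7638330-7638579, plus strand), with GGATTA in capitals, and of Syn1 (chrX:20920919-20921168, minus strand), with the RE1 block in capitals, were as follows.
Syp: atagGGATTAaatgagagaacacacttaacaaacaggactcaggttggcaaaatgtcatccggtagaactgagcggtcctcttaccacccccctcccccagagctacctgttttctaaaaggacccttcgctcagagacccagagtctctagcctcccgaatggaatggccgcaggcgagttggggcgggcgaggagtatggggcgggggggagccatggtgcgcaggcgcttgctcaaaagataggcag
Syn1: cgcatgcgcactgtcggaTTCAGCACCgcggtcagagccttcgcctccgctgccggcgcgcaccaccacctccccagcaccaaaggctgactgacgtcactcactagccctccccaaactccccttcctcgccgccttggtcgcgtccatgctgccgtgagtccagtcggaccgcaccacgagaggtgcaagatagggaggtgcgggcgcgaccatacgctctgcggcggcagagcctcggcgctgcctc
The median GC content of the members' windows was 56.7%, below the 61.7% of genes in the table and above the 52.7% of all windows. These matches describe the letters of the windows only.

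Other genes of the same roles, on a list of 100 of which 97 were in the table, gave counts of the same kind in gtf2i/gtf2i against wt. This list was also chosen with earlier results of these data known, and not all of its genes are limited to neurons. Of the 97, 86 were lower (median -0.21 on the log2 scale), and 3 vesicle genes were called, each lower, where 0.94% of all genes were called. They were Sv2b, a vesicle glycoprotein (SE 0.15 on a log2 fold change of -0.9998, adjusted p by edgeR 0.00639), Syngr1, which encodes synaptogyrin (-0.78, SE 0.15, adjusted p 0.0282), and Sncb, which encodes beta-synuclein (-1.05, SE 0.21, adjusted p 0.0342). The 39 vesicle genes of this list had a median of -0.30, the 23 cytoskeletal genes -0.17, the 20 adhesion genes -0.17 and the 15 RNA-binding genes -0.11. Against gtf2i, where 3.12% of all genes were called, 10 of the 97 were called lower and 1 higher, the adhesion gene Lrrn1 (log2 fold change 0.51, SE 0.10, adjusted p by edgeR 0.0139). The 10 were Dclk2, Kif1a and Kif3c of the cytoskeleton and Sv2b, Syt5, Syngr1, Syngr3, Unc13a, Sncb and Slc17a7 of the vesicle.

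Markers of other cell types moved in the same libraries. The 14 radial glia markers summed to 3455 to 3981 CPM in gtf2i/gtf2i and 2862 to 3266 in wt, without overlap, with 10 of 14 higher and 0 called. The lowest of the 3 mutant sums, 3455 CPM, was in replicate 3, against 3869 and 3981 in the others. All 14 markers of cycling progenitors were higher (log2 median 0.27, 0 called), at sums of 1618 to 2087 CPM against 1499.95 to 1653, and the sum of replicate 3, the lowest of the mutant sums, lay within the wt range. The 8 red blood cell markers in the table, of 12 listed, summed to 5789.9 to 9184 CPM against 4091 to 5314, with 8 of 8 higher and 2 called. Mesenchyme markers were at 1328 to 2091 CPM against 1198 to 1417 (10 of 12 higher), intermediate progenitor markers at 989 to 1133 against 886 to 1054 (6 of 9 higher, with Eomes called lower), and endothelial markers at 483 to 564 against 451 to 543 (5 of 11 higher). Microglia markers were at 78.9 to 99.5 CPM against 66.1 to 82.4 (6 of 6 higher). The choroid plexus sum was lower, 240.2 to 269 CPM against 311 to 403, with Ttr called lower, although 5 of the 7 markers in the table were higher. Against gtf2i, 4 radial glia markers were called higher (Hes5, Nes, Vim and Hmga2), 5 red blood cell markers and 2 mesenchyme markers were called higher, and Eomes and Ttr lower. No marker in the table was at 0, since its lowest count was 10. The part of these cell types in the neuronal result was not tested.

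**Figure D4:**
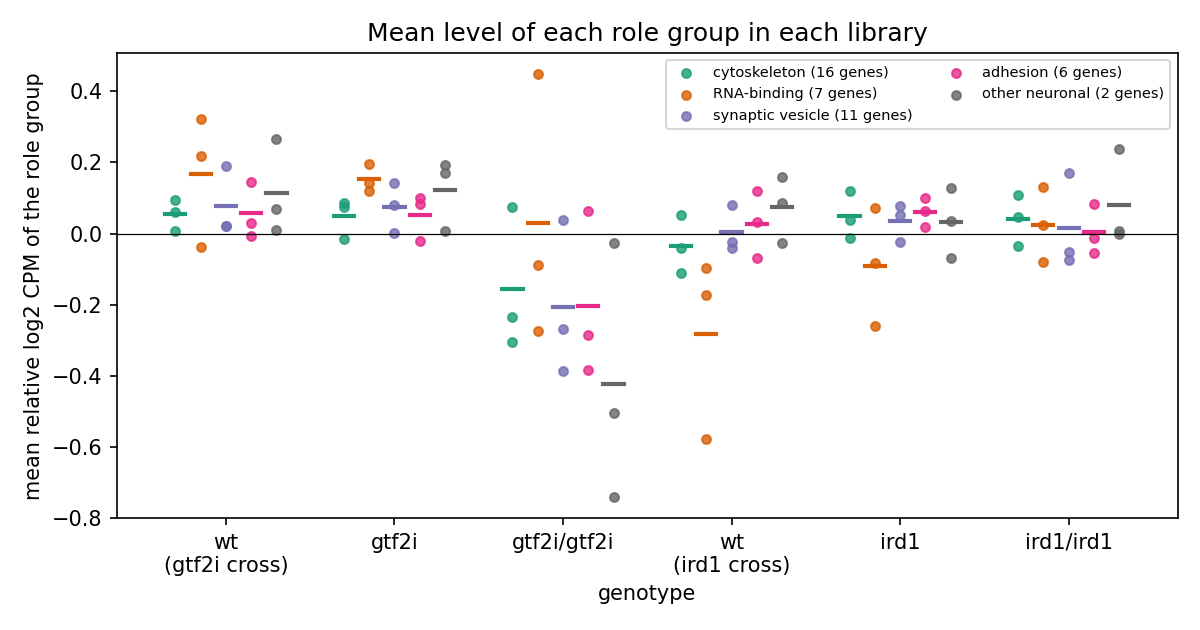
Mean over each role group of log2 CPM relative to the mean of each gene over 18 libraries, 1 point a library, with a bar at the mean of the 3 libraries of a genotype. In gtf2i/gtf2i the bars of the cytoskeleton, vesicle, adhesion and other neuronal genes lie below 0 with 1 library above the other 2, and the lowest RNA-binding point, -0.58, is wt replicate 2 of the ird1 cross.

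In ird1/ird1 against wt, of the 42 genes 17 were lower and 25 higher, the log2 median was 0.04, and 0 members were called, where 0.00854% of all genes were called by edgeR, and DESeq2 also called 0 members. At an unadjusted p under 0.05 there were 10 members, 2 lower and 8 higher, where 16.1% of all genes had such a p. Without wt replicate 2 there were 6, against 7.49% of all genes. There were 4 without ird1/ird1 replicate 1 (983 of all 11708 genes), 4 without ird1/ird1 replicate 3 (1275 genes) and 11 to 14 without any 1 of the other 3 libraries (1194 to 2507 genes). In 14 members, 4 lower and 10 higher, the groups did not overlap, and 26.9% of all genes showed the same.

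All 7 RNA-binding genes had a higher fitted level in ird1/ird1, with a median log2 fold change of 0.32. The largest was Elavl4, at 94, 55.3 and 103 CPM in wt and 118, 99.6 and 114 in ird1/ird1, a log2 fold change of 0.36 (SE 0.16, adjusted p by edgeR 0.304). The low wt value was replicate 2, without which the change was 0.17, and the groups overlapped. Nova1, which encodes a splicing factor, was at 134, 85.6 and 131 CPM in wt and 161, 141 and 145 in ird1/ird1 (log2 fold change 0.32, SE 0.13, adjusted p by edgeR 0.296), without overlap, and the change was 0.16 without wt replicate 2. Rbfox2 had the smallest change, from 727, 702 and 687 CPM to 769.6, 741 and 735 (log2 fold change 0.07, SE 0.08). Without wt replicate 2 the median of the 7 genes was 0.17, and with the trend on transcript length removed it was 0.16, with Rbfox2 then at -0.10. That library had a total count of 3239117, the lowest of the 18, and 4.04% of its counts in Rn7sk and Gm23935. The part of depth and RNA composition in this difference was not tested.

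The other groups of members split in ird1/ird1. Among cytoskeletal genes Dcx was the highest, at 599, 355 and 582 CPM in wt and 791, 643 and 670.5 in ird1/ird1, without overlap (log2 fold change 0.44, SE 0.17, adjusted p by edgeR 0.296). Without wt replicate 2, its lowest library, this became 0.24. Stmn3 was the lowest, at 344, 561 and 332 CPM against 342, 292 and 302, a log2 fold change of -0.41 (SE 0.16, adjusted p by edgeR 0.296) that became -0.12 without wt replicate 2. Tubb3 was at 2273, 2568 and 2214 CPM in wt and 2143, 1924 and 2039 in ird1/ird1, without overlap (log2 fold change -0.22, SE 0.11, adjusted p by edgeR 0.314). Among vesicle genes Syp, which encodes synaptophysin, was lowest, at 109.8, 124 and 107 CPM against 105, 90.1 and 86.6, without overlap (log2 fold change -0.28, SE 0.12). Syt1, the calcium sensor of vesicle fusion, was highest, at 89, 64.5 and 81.3 CPM against 109, 84.7 and 91.7 (log2 fold change 0.26, SE 0.14, and 0.15 without wt replicate 2). Snap25 was at 33.4, 25 and 23.9 CPM against 29.2, 27.5 and 25.4 (log2 fold change -0.03, SE 0.14, and -0.08 without wt replicate 2).

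Among adhesion genes in ird1/ird1, Nrxn2 was lowest, at 569, 738 and 519 CPM in wt against 531, 501 and 507 (log2 fold change -0.26, SE 0.12, and -0.09 without wt replicate 2), and Ncam1, the neural cell adhesion molecule, was highest, at 653, 581 and 583 against 744, 676 and 695, without overlap (log2 fold change 0.21, SE 0.09, adjusted p by edgeR 0.304). Uchl1 was at 506, 674 and 465 CPM against 477, 466 and 467 (log2 fold change -0.23, SE 0.12), and Myt1l at 102, 69.1 and 85.6 against 120.5, 89.7 and 88.2 (log2 fold change 0.19, SE 0.15). Without wt replicate 2, which held the highest Uchl1 and the lowest Myt1l value of the wt libraries, these became -0.06 and 0.08. Of the other 3 genes called in gtf2i/gtf2i against gtf2i, Mapt was at 0.00 (SE 0.10), L1cam at -0.04 (SE 0.08) and Syn2 at -0.17 (SE 0.15) on the log2 scale in ird1/ird1 against wt, and without wt replicate 2 they were at 0.05, -0.00 and -0.16.

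Between ird1 and wt 28 members were higher and 14 lower, with a log2 median of 0.09, while 51.1% of all genes were lower. Leaving out wt replicate 2 left 7 members lower, with a median of 0.07, and leaving out ird1 replicate 1 gave 18 lower, with a median of 0.03. By edgeR 0 members were called, as was 0% of all genes. At an unadjusted p under 0.05 there were the neurofilament genes Nefl (log2 fold change 0.55, SE 0.15) and Nefm (0.36, SE 0.12), against 3.02% of all genes. Nefl was at 64.4, 74 and 58.7 CPM in wt and 83.7, 121 and 81.1 in ird1, without overlap. Between ird1/ird1 and ird1 there were 0 members at either threshold, with DESeq2 calling 0 members in both comparisons, against 0% of all genes called by edgeR and 4.66% with an unadjusted p under 0.05.

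The effects of both homozygous genotypes share no library, and their difference was tested directly. The gtf2i/gtf2i effect minus the ird1/ird1 effect was below 0 for 37 of the 42 genes, with a median of -0.29 on the log2 scale against -0.01 for all genes. No member was called by edgeR, where 0.171% of all genes were, and DESeq2 called 0 members. At an unadjusted p under 0.05 there were 13 members, each lower, against 6.47% of all genes. That number was 3 without gtf2i/gtf2i replicate 1, 4 without ird1/ird1 replicate 1, 6 without the gtf2i-cross wt replicate 3, 7 without gtf2i/gtf2i replicate 2 and 26 without gtf2i/gtf2i replicate 3. Of all 11708 genes, 937, 1009, 918, 966 and 2869 had such a p in these 5 fits. The smallest adjusted p was that of L1cam, with a difference of -0.53 (SE 0.17, adjusted p by edgeR 0.223), and next was Mapt with -0.63 (SE 0.20, adjusted p 0.236). With the title number as a block L1cam was called (difference -0.55, SE 0.12, adjusted p by edgeR 0.0456), the 1 member among 0.709% of all genes, though the numbers did not pair the libraries of the ird1 cross. With the length trend removed as well, 0 members were called, among 83 genes. All 7 RNA-binding genes had a difference below 0, with a median of -0.35. It became -0.62 when gtf2i/gtf2i replicate 3 was left out and -0.26 when ird1-cross wt replicate 2 was. Without gtf2i/gtf2i replicate 1 it was -0.20, and with the length trend removed -0.24. The wt groups, which enter this difference, themselves differed by a median of 0.40 in these genes. Without gtf2i/gtf2i replicate 3, 16 members were called, each lower, where 6.18% of all genes were called, and the median over the 42 genes was -0.48.

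How far the 42 genes differ between groups with no labelled mutant allele was read from both wt groups. In wt of the gtf2i cross against wt of the ird1 cross 0 members were called by edgeR, as was 0% of all genes, and 20 had an unadjusted p under 0.05, against 32.7% of all genes. Without wt replicate 2 of the ird1 cross, 10 members had such a p, against 15.9% of all genes, and 0 were called. DESeq2 called 10 of the 42 genes and 13.3% of all genes. Leaving out wt replicate 1 of the gtf2i cross gave 12 edgeR calls among the members and 17.7% of all genes, and leaving out wt replicate 1 of the ird1 cross gave 7 and 8.81%. The median log2 difference was 0.11 for the 42 genes and 0.40 for the 7 RNA-binding genes, each of which was higher in the gtf2i cross. Elavl2, a relative of Elavl4, was at 129, 164 and 167 CPM in wt of the gtf2i cross and 123, 70.8 and 108 in wt of the ird1 cross, without overlap (log2 difference 0.59, SE 0.17). Uchl1 had a log2 difference of -0.38 (SE 0.11) between the wt groups, near its change of -0.39 in gtf2i/gtf2i against wt. Without wt replicate 2 of the ird1 cross this difference was -0.20 (SE 0.09). Mapt, L1cam and Syn2, which like Uchl1 were called in gtf2i/gtf2i against gtf2i, were at 0.05, 0.10 and -0.06 between the wt groups. Cross and any batch cannot be told apart in this comparison.

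The difference between the wt groups went with transcript length. The 21 members of at least 4143 bases, their median length, had a median log2 difference of 0.34 and the 21 shorter ones -0.06, where all genes split at that length gave 0.15 and -0.10. With ird1-cross wt replicate 2 left out, the members gave 0.22 and -0.04. In ird1/ird1 against wt the medians of long and short members were 0.17 and -0.04, and 0.09 and 0.00 without that library. In gtf2i/gtf2i against wt both were below 0, -0.18 for long and -0.27 for short members, with 19 and 18 of 21 genes lower. Without gtf2i/gtf2i replicate 3 they were -0.38 and -0.37, with 21 and 19 lower.

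**Figure D5:**
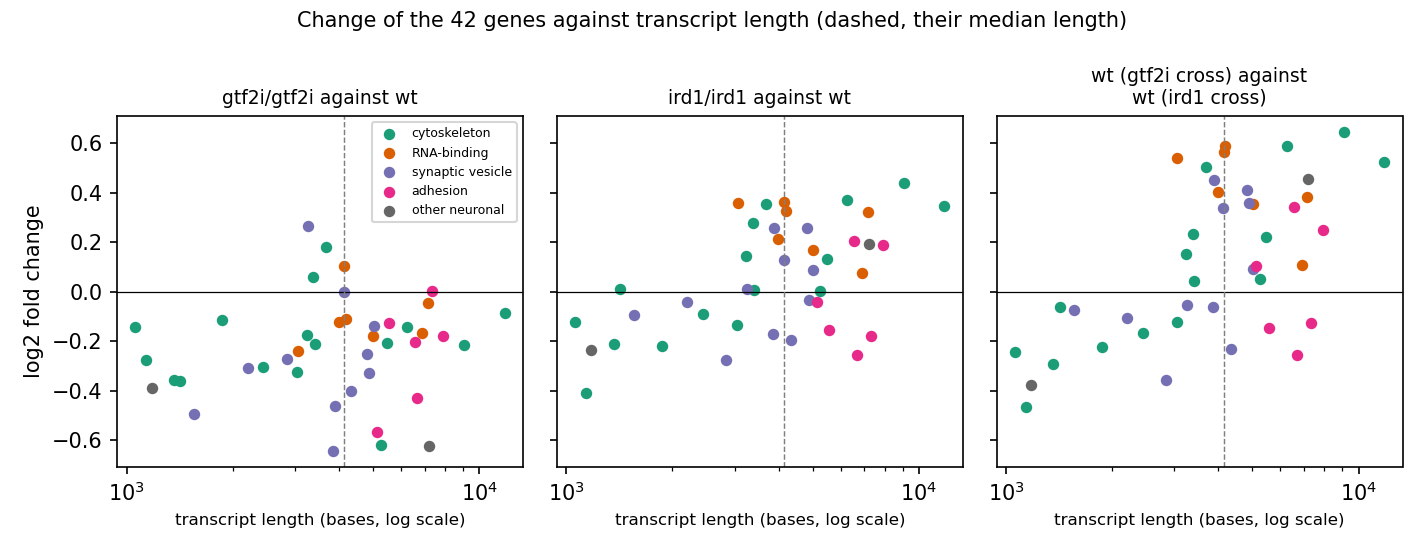
Log2 fold change of the 42 genes against transcript length in bases on a log axis, in 3 comparisons, coloured by role group, with their median length, 4143 bases, as a dashed line. Points lie below 0 on both sides of the line in gtf2i/gtf2i, and in the comparison of both wt groups the median is 0.34 right of the line and -0.06 left of it.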

How the data were processed

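RNA-seq counts per gene from 18 embryonic whole-brain libraries were used; 32 ChIP and input samples of the series were not analysed here. Ribosomal RNA was removed from total RNA ahead of library preparation, per the labels' protocols. The deposited counts are whole numbers per gene, made by the authors with Trimmomatic, STAR and HTSeq on mm10, per the submitters' processing notes. The strand setting was not given in the sources used here, so reads of overlapping antisense genes cannot be told apart. The lowest count in any library was 10, at which counting error alone is 31.6%, and the table as deposited therefore lacks genes of low expression.

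Each cross was fitted on its 9 libraries with edgeR 4.0.16 in R 4.3.3 (trimmed mean of M values, quasi-likelihood test, Benjamini-Hochberg adjustment over 11708 genes); its expression filter removed 0 genes. The difference of effects and the comparison of wt groups used all 18 libraries. The code was tested on simulated data. Members and gene lists were chosen with earlier results of these data known. Values per library are given for called members, for those with the lowest and highest change in each role group in both homozygous comparisons with wt, and for Tubb3, Dcx and Snap25; Rab3a, Nova1, Elavl2 and Nefl were chosen after their values were seen.

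Replicates are numbered in accession order. The number that opens each sample title, whose meaning is not stated, was tested as a pairing. Deviations of gtf2i/gtf2i and wt libraries of the same number had correlations of 0.374, 0.104 and 0.516 over genes, so the blocked values are given beside that comparison. Correlations for gtf2i reached down to 0.0483, and in the ird1 cross they ran from -0.296 to 0.283. No replicate pair agreed within counting noise (chi-square per degree of freedom 2.90 to 29.5). Alternatives were DESeq2 1.42.0, other size factors, a mean of at least 5 CPM, removal of a trend on length, other sets of libraries in the fit, and leaving out each library.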

Additional observations from a re-analysis of the deposited data

How the results depend on the processing

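For gtf2i/gtf2i against wt, the members and genes called were 7 and 322 with DESeq2, 6 and 315 with the length trend removed, 4 and 262 in a fit on all 18 libraries, 13 and 624 with the title number as replicate block, and 14 and 800 with block and length together; a fit on only both groups called 31 genes. Leaving out 1 library at a time gave 0 to 25 members, 28 to 1159 genes and a median of -0.37 to -0.12. Cntn2 changed sign, to -0.00015 with the block, and ranged from -0.057 to 0.10 without single libraries; Elavl4 ranged from -0.11 to 0.25 and Rbfox1 from -0.75 to 0.046. Against gtf2i, members called were 7 (504 genes) with DESeq2, 9 (532 genes) with the length trend removed, 13 (892 genes) with the replicate block and 15 (1068 genes) with both; leaving out single libraries gave 0 to 24 members, 67 to 1376 genes and a median of -0.37 to -0.10. For gtf2i against wt, genes called were 6 with DESeq2, 2 with the replicate block, 6 with block and length, 5 on only both groups and 3 on all 18 libraries, with 0 members throughout. In the ird1 cross the replicate block left 0 members called. For ird1 against wt, DESeq2 and the fit on all 18 libraries called 1 gene and single libraries left out 0 to 1; for ird1/ird1 against ird1, DESeq2, the fit on both groups and that on all 18 called 1. Rbfox2 in ird1/ird1 against wt became -0.10 (-0.105) with the length trend removed and -0.101 with the block too. The difference of effects had 84 genes called with DESeq2, 83 with the replicate block (1 member, L1cam) and 83 with block and length (0 members); leaving out single libraries gave 0 to 16 members, 12 to 723 genes and a median of -0.48 to -0.19. Between wt groups, DESeq2 called 10 members and 1561 genes, and single libraries left out gave 0 to 12 members and 0 to 2076 genes. A block could not be fitted there, since title numbers lie within crosses. The cause of these shifts was not tested. With 3 libraries a group, 1 library can set a call, and the lowest library total, 3239117, limits members of low expression most.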
